A study of Danio rerio with 13 samples.

Results

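The genes described here encode receptors for peptide hormones and neuropeptides, measured by RNA sequencing in zebrafish pancreatic endocrine cells (PECs) and enteroendocrine cells (EECs). They were chosen by symbol alone: every gene named as a receptor for somatostatin, galanin, neuropeptide Y, glucagon, GIP, ghrelin or motilin, cholecystokinin, VIP or PACAP, calcitonin, the opioids, insulin or IGF1, neurotensin, bombesin, corticotropin-releasing hormone, the melanocortins, tachykinins, or vasopressin and oxytocin. This gave 68 of the 31901 genes in the count tables, in 16 families. The symbols to look for were themselves chosen with earlier results of these data known. No symbol starting with glp1r or glp2r was matched. For 16 of the 68, the symbol is shared by another gene identifier, and such genes are given with their Ensembl identifier, as in igf1r (ENSDARG00000034434).

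There were 3 preparations of pax6b-/- EECs, 4 of wild-type (WT) EECs, 3 of pax6b-/- PECs and 3 of WT PECs. All fish were of the AB strain and carried Tg(pax6b:GFP)ulg515, in which pax6b regulatory sequence drives GFP, and GFP+ cells were sorted in 2 rounds from tissue pooled from about 200 animals. Mutants were homozygous for the pax6b sa0086 allele and were picked by their absent or reduced lens, from crosses of heterozygous carriers. EECs came from the dissected gut at 4 dpf and PECs from the dorsal pancreatic bud at 27 hpf, with a different enzyme mix for each, so tissue, age and dissociation cannot be told apart in any EEC against PEC difference. The preparations are described as independent, nothing more is stated of their origin, and p-values measure the spread between them. Because pax6b regulatory sequence also marks the cells, and because these are bulk samples, fewer cells of a type and less RNA per cell cannot be told apart.

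Totals ran from 22423938 to 61895597 counts per sample, with a median of 33343637. Levels are given as CPM, the counts of a gene per 1000000 counts over all genes of that sample, and 3 counts, taken as the detection floor, were worth 0.0485 to 0.134 CPM. All 8 endocrine markers had a mean of at least 1 CPM in every group, with summed levels of 6980 to 7471 CPM in pax6b-/- EECs, 6498 to 6922 CPM in WT EECs, 10511 to 11952 CPM in pax6b-/- PECs and 7975 to 12841 CPM in WT PECs. The 8 enterocyte markers summed to 907 to 1856 CPM in pax6b-/- EECs and 1170.3 to 1641 CPM in WT EECs, with vil1 the highest of them, against 33.2 to 53.1 CPM in pax6b-/- PECs and 16.6 to 24.5 CPM in WT PECs. The 9 neuronal markers, of which ret was the highest, summed to 572 to 643 CPM in pax6b-/- EECs and 367 to 521 CPM in WT EECs, and to 579 to 740 CPM in pax6b-/- PECs and 465 to 500 CPM in WT PECs. These sums did not overlap between the genotypes in either tissue, but none of the 9 markers passed the test as higher in mutants, and 1 passed as lower in the mutants of each tissue. The erythrocyte gene hbae3 lay between 35.04 and 211 CPM in all PEC samples. Which cells these marker counts came from was not tested, nor was any part of other cells in the receptor results.

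Most of these receptors span the membrane several times and signal through G proteins, apart from the insulin and IGF1 receptors, which are tyrosine kinases. Receptors for somatostatin, galanin, neuropeptide Y and the opioids mainly couple to inhibitory G proteins and in mammalian islets dampen hormone release. Receptors for glucagon, VIP, PACAP and corticotropin-releasing hormone couple mainly to the stimulatory G protein that raises cyclic AMP, while those for tachykinins, bombesin peptides, ghrelin and the V1 type of vasopressin receptor act mainly through phospholipase C. Through them islet and gut endocrine cells read each other's hormones as well as signals from nerves.

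Only part of the module was measurable in these cells. A mean of at least 1 CPM was reached by 26 of the 68 genes in pax6b-/- EECs, 25 in WT EECs, 23 in pax6b-/- PECs and 21 in WT PECs, and at least 10 CPM by 6, 7, 9 and 7 genes in the same groups. No group reached 1 CPM for 34 genes, among them both crhr2 genes, both tacr1 genes, all 3 cholecystokinin receptors (cckar, cckbr, cckbra), all 6 melanocortin receptors, mlnr, gipr, gcgrb, ntsr1 and nmbr. The adrenocorticotropin receptor mc2r and crhr2 (ENSDARG00000103704) stayed at or under the floor of 3 counts in all 13 samples. Summed over the module, the level was 316 ± 47.8 CPM in pax6b-/- EECs (SD, n = 3) and 310 ± 18.6 CPM in WT EECs (SD, n = 4), and 357 ± 19.8 CPM in pax6b-/- PECs and 211 ± 52.7 CPM in WT PECs (SD, n = 3 each). The 3 mutant PEC sums, from 336 CPM upward, all lay above the WT sums, which reached 272 CPM at most.

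**Figure D1:**
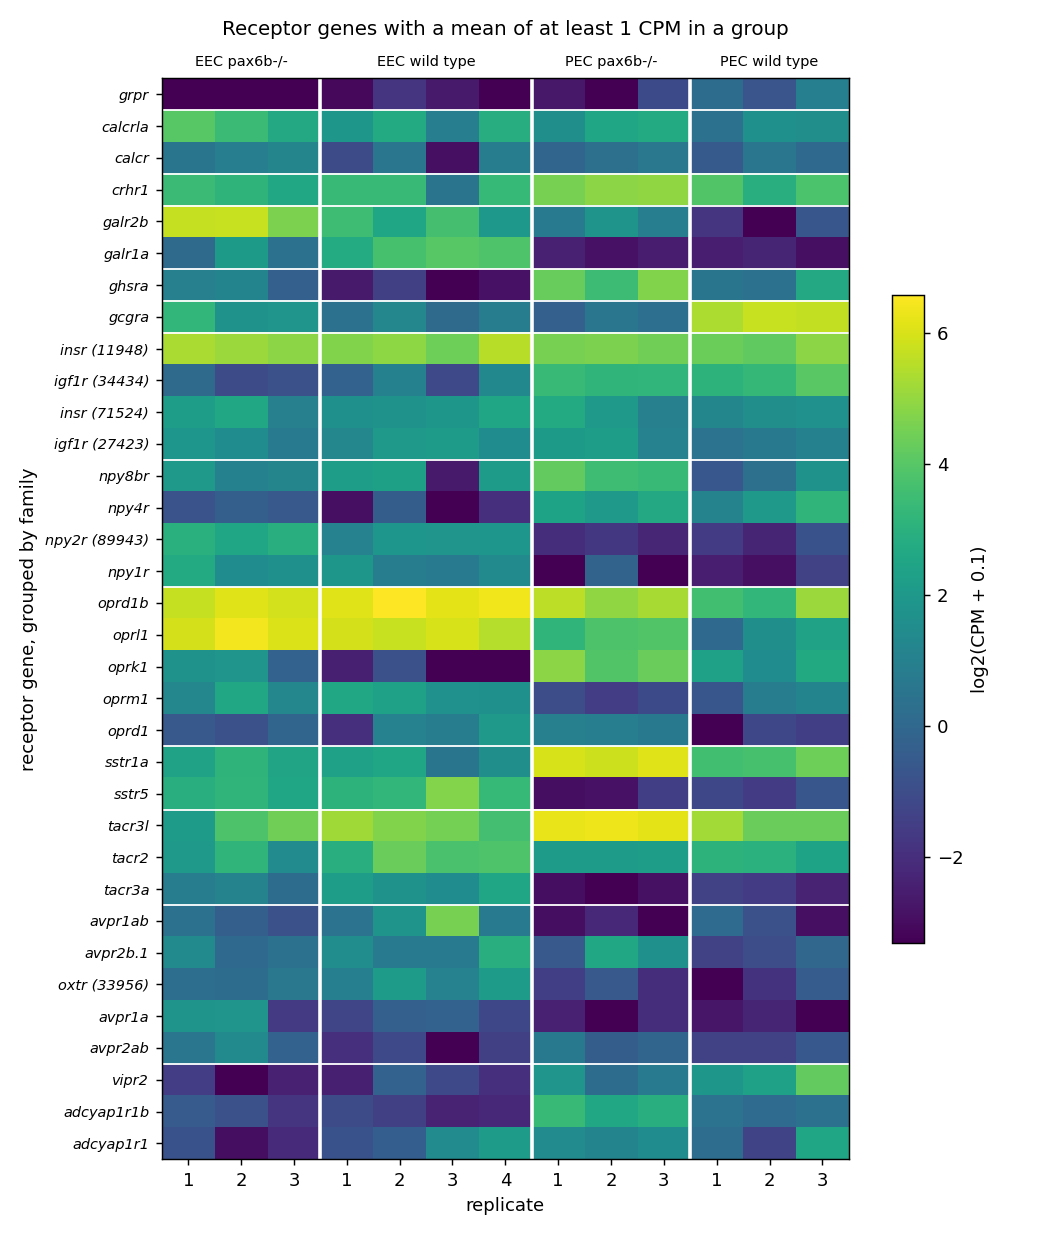
Level of the 34 receptor genes with a mean of at least 1 CPM in a group, as log2(CPM + 0.1), in each of the 13 samples (columns, by group and replicate); genes are in rows by family, with the last digits of the identifier where a symbol is shared. The delta opioid receptor oprd1b, the nociceptin receptor oprl1 and insr (ENSDARG00000011948) are bright in EECs of both genotypes, sstr1a and tacr3l are brightest in pax6b-/- PECs, and gcgra is brightest in WT PECs.

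How loss of pax6b changed receptor expression was first asked in PECs. Of the 68 receptor genes, 32 had enough counts to be tested, and 15 of them passed an adjusted p of 0.1 (edgeR quasi-likelihood test, Benjamini-Hochberg adjustment over all genes), 11 higher and 4 lower in pax6b-/- PECs. Across all 18698 genes tested, 11.2% passed, 5.43% higher and 5.74% lower. The median log2 fold change was 0.62 for the 32 receptors and 0.02 for all genes, a description only, since a receptor near the floor in WT could enter the test through the mutants alone. The receptor median also depended on single samples. It was 0.072, 0.072 and 0.0055 without pax6b-/- replicate 1, 2 or 3. Without WT replicate 1, 2 or 3 it was 0.30, 0.46 and 0.99. Between 35 and 39 receptors were tested in these fits.

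The glucagon receptor gcgra, the receptor through which alpha-cell glucagon raises cyclic AMP, showed the largest change among the tested receptors. It measured 0.716, 1.40 and 1.12 CPM in pax6b-/- PECs, against 41.2, 53.8 and 51.6 CPM in WT PECs. The groups were far apart, with a log2 fold change of -5.75 ± 0.38 (SE, adjusted p = 2e-06 by edgeR). The other glucagon receptor gene, gcgrb, and the GIP receptor gene gipr were below 1 CPM in every sample and were not tested. Of the ligands, gcgb fell in the same cells, with 34.9 ± 14.3 CPM in pax6b-/- PECs and 12435 ± 3542 CPM in WT PECs (SD, n = 3 each, adjusted p = 5.8e-07 by edgeR), whereas gcga averaged 3131 ± 361 CPM in pax6b-/- PECs and 1504 ± 998 CPM in WT PECs (SD, n = 3 each, adjusted p = 0.131 by edgeR).

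Among the receptors of the inhibitory peptides, the somatostatin receptor sstr1a rose, with 62.7, 57.5 and 68.2 CPM in pax6b-/- PECs, against 12.1, 12.8 and 21.1 CPM in WT PECs (log2 fold change 1.83 ± 0.27, adjusted p = 0.000963 by edgeR). The 3 mutant samples were each more than 2 times above the highest WT sample. The remaining 5 somatostatin receptor genes were low in PECs, at most 1.00 CPM in any sample, and only sstr1b among them was tested, without a call. The somatostatin genes themselves went the other way: sst1.1, sst1.2 and sst2 were all lower in pax6b-/- PECs, sst2 at 5191 ± 544 CPM, against 19489 ± 5028 CPM in WT PECs (SD, n = 3 each, log2 fold change -2.17, adjusted p = 0.000961 by edgeR).

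Opioid receptors were the family with most calls in PECs, 4 of 5 tested. The kappa receptor oprk1, whose ligands are the dynorphins, had 29.4, 14.9 and 20.0 CPM in pax6b-/- PECs, against 5.03, 2.74 and 6.45 CPM in WT PECs (log2 fold change 1.98 ± 0.38, adjusted p = 0.00598 by edgeR). The nociceptin receptor oprl1 had 8.93, 14.1 and 14.6 CPM in pax6b-/- PECs, against 0.938, 2.98 and 5.14 CPM in WT PECs (1.88 ± 0.50, adjusted p = 0.0380 by edgeR). Neither gene overlapped between the genotypes. The delta receptor oprd1 was lower in level, 1.89, 1.81 and 1.52 CPM in pax6b-/- PECs, against 0, 0.342 and 0.259 CPM in WT PECs, and passed only through the mutants (2.90 ± 0.89, adjusted p = 0.0700 by edgeR). Its paralog oprd1b, with 48.9, 31.0 and 38.7 CPM in pax6b-/- PECs and 11.98, 9.41 and 34.3 CPM in WT PECs, overlapped between the genotypes and did not pass the test (0.95 ± 0.38, adjusted p = 0.167 by edgeR). The mu receptor oprm1 was the exception in direction, at 0.401, 0.247 and 0.362 CPM in pax6b-/- PECs, against 0.521, 1.71 and 2.1003 CPM in WT PECs (-2.29 ± 0.69, adjusted p = 0.0650 by edgeR). Among the opioid peptide genes, pdyn and penkb were higher in pax6b-/- PECs (log2 fold changes 2.46 and 3.39), and the nociceptin precursors pnoca and pnocb were lower (-3.54 and -4.97), all past the threshold. For pnoca the genotypes overlapped, with 9.05, 7.60 and 17.1 CPM in pax6b-/- PECs and 29.0, 11.9 and 343 CPM in WT PECs, and WT replicate 3 stood far above the rest.

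The neuropeptide Y family contributed 1 call of 2 tested. The fish Y8 receptor npy8br had 18.2, 11.2 and 10.1 CPM in pax6b-/- PECs, against 0.547, 1.16 and 3.30 CPM in WT PECs, with no overlap (log2 fold change 2.82 ± 0.54, adjusted p = 0.00586 by edgeR). For npy4r the values were 5.27, 3.95 and 6.15 CPM in pax6b-/- PECs and 2.03, 3.97 and 8.81 CPM in WT PECs, the mutant range lying within the WT range. Of the ligand genes, pyya fell in pax6b-/- PECs (-5.08, adjusted p = 2.03e-06 by edgeR), with 3.17 ± 0.858 CPM in mutants and 90.7 ± 16.7 CPM in WT (SD, n = 3 each). The galanin receptor galr2b was at 1.66, 3.41 and 1.81 CPM in pax6b-/- PECs, against 0.182, 0 and 0.533 CPM in WT PECs (3.05 ± 0.86, adjusted p = 0.0474 by edgeR). Like oprd1, galr2b could enter the test only through the mutants. The galanin gene galn was at or below 0.315 CPM in every PEC sample.

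The ghrelin receptor ghsra rose too, with 19.5, 11.1 and 26.0 CPM in pax6b-/- PECs, against 1.33, 1.23 and 6.25 CPM in WT PECs (log2 fold change 2.55 ± 0.55, adjusted p = 0.0113 by edgeR). All 3 mutant samples were above the highest WT sample, replicate 3. Its ligand gene ghrl was higher in the same cells, at 2607 ± 612 CPM in pax6b-/- PECs and 787 ± 447 CPM in WT PECs (SD, n = 3 each, log2 fold change 1.41, adjusted p = 0.0947 by edgeR). The related peptide gene mlnl also rose, with a log2 fold change of 5.43, while mlnr, named for its motilin receptor, was at most 0.0411 CPM in any PEC sample.

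Receptors that raise cyclic AMP moved in both directions. The PACAP receptor adcyap1r1b had 10.4, 5.92 and 7.34 CPM in pax6b-/- PECs, against 1.28, 0.992 and 1.18 CPM in WT PECs (log2 fold change 2.54 ± 0.44, adjusted p = 0.00292 by edgeR), and the WT samples were tightly grouped. Its ligand gene adcyap1b was higher in mutants as well (4.22, adjusted p = 0.000114 by edgeR). The VIP and PACAP receptor vipr2 had 3.52, 1.03 and 1.63 CPM in pax6b-/- PECs, against 3.72, 4.96 and 18.2 CPM in WT PECs (-2.24 ± 0.59, adjusted p = 0.0362 by edgeR), the closest samples of the groups nearly touching. For crhr1, the receptor of corticotropin-releasing hormone, the values were 23.6, 29.1 and 31.0 CPM in pax6b-/- PECs, against 14.8, 7.32 and 13.8 CPM in WT PECs (1.01 ± 0.32, adjusted p = 0.0802 by edgeR). Apart from these, the V2-type vasopressin receptor avpr2b.1 passed (2.42 ± 0.76, adjusted p = 0.0743 by edgeR). Its groups overlapped, at 0.573, 5.92 and 3.07 CPM in pax6b-/- PECs and 0.287, 0.410 and 0.856 CPM in WT PECs.

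Of the receptors that act mainly through phospholipase C, the tachykinin receptor tacr3l rose, with 76.8, 79.8 and 71.8 CPM in pax6b-/- PECs, against 36.7, 19.9 and 20.1 CPM in WT PECs (log2 fold change 1.32 ± 0.32, adjusted p = 0.0216 by edgeR). The mutant samples lay close together and well above the highest WT sample. Its relative tacr2 had 4.27, 4.32 and 4.59 CPM in pax6b-/- PECs and 8.41, 7.87 and 5.25 CPM in WT PECs, lower in each mutant sample but short of the threshold (-0.98 ± 0.40, adjusted p = 0.182 by edgeR). The gastrin-releasing peptide receptor grpr had 0.0573, 0 and 0.362 CPM in pax6b-/- PECs, against 1.04, 0.513 and 1.86 CPM in WT PECs (-3.17 ± 0.98, adjusted p = 0.0717 by edgeR). It could enter the test only through the WT samples. The gene nmba, for the bombesin-like peptide neuromedin B, was also lower in mutants, with 91.3 ± 21.9 CPM in pax6b-/- PECs and 1356 ± 335 CPM in WT PECs (SD, n = 3 each, adjusted p = 4.05e-06 by edgeR).

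The tyrosine kinase receptors did not pass in PECs. The insulin receptor insr (ENSDARG00000011948) had 23.3, 25.0 and 21.7 CPM in pax6b-/- PECs and 20.2, 18.0 and 28.7 CPM in WT PECs (log2 fold change -0.15 ± 0.27, adjusted p = 0.817 by edgeR), with the mutant range inside the WT range. The IGF1 receptor igf1r (ENSDARG00000034434) had 10.1, 8.96 and 9.15 CPM in pax6b-/- PECs and 8.49, 9.51 and 16.4 CPM in WT PECs (-0.48 ± 0.33, adjusted p = 0.458 by edgeR). The insulin gene ins, by contrast, fell by 7.09 on the log2 scale in the same mutants (adjusted p = 1.7e-06 by edgeR), with 92.4 ± 24.2 CPM in pax6b-/- PECs and 10721 ± 4505 CPM in WT PECs (SD, n = 3 each).

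**Figure D2:**
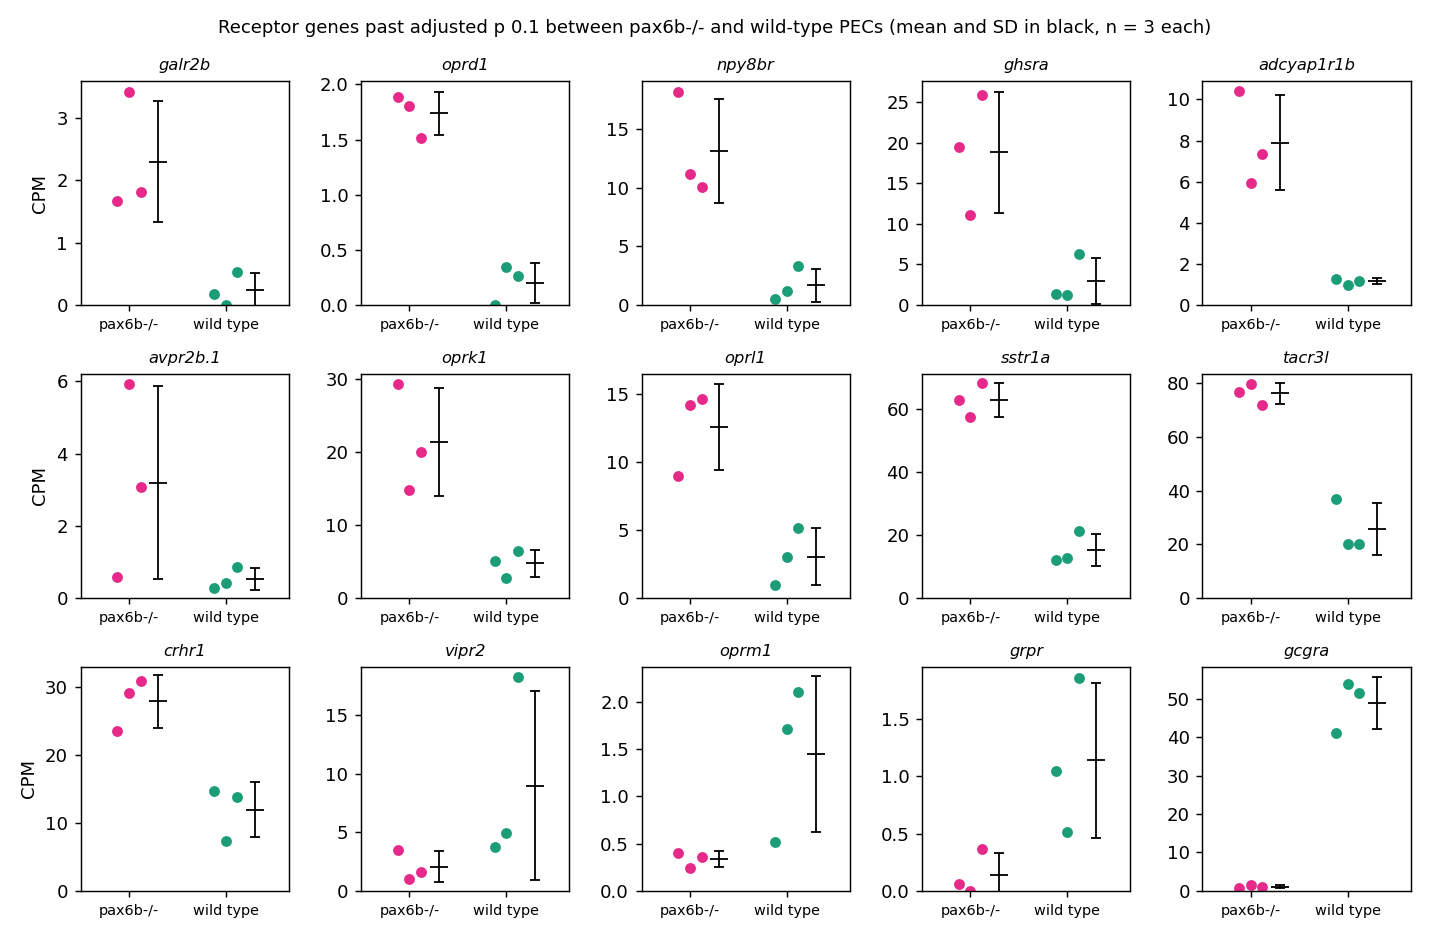
CPM of the 15 receptor genes past an adjusted p of 0.1 in PECs, in each pax6b-/- sample (left) and WT sample (right) on linear axes that differ between panels, in order of log2 fold change; black bars give the mean and SD (n = 3 each). Mutant and WT points are separate for all genes but avpr2b.1, which is no further support, since the genes were picked by a test on the same samples. The gene gcgra stands at 0.716 to 1.40 CPM in mutants and 41.2 to 53.8 CPM in WT.

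These calls differed in how far they rested on single samples. With each sample left out in turn, the calls of gcgra, sstr1a, adcyap1r1b, npy8br, oprk1 and ghsra held in all 6 fits, with adjusted p of at most 0.0539, and tacr3l lost its call only without WT replicate 2 (adjusted p = 0.104, edgeR). The other 8 each lost their call in at least 2 of the fits. Without pax6b-/- replicate 2 all 8 did (vipr2, oprl1, galr2b, oprm1, oprd1, grpr, avpr2b.1 and crhr1, adjusted p from 0.123 to 0.341). Leaving out pax6b-/- replicate 1 or 3 ended 4 or 5 of the 15 calls, and leaving out WT replicate 1, 2 or 3 ended 5, 4 or 3. No fold change turned round in any of these fits. In one fit of all 12 samples, 5 of the 15 calls were lost (oprk1, oprd1, vipr2, grpr and crhr1, adjusted p from 0.111 to 0.317).

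The same question was asked in EECs. Of the 39 receptor genes tested, 2 passed, 1 higher and 1 lower in pax6b-/- EECs, against 4.18% of all 18676 genes (1.82% higher and 2.36% lower). The count depended on the method. DESeq2 called 12 of 44 receptors tested (8 higher and 4 lower), against 1705 of 21291 genes. One fit of 12 samples called 6 of 48, against 933 of 21067 genes. Without the filter on low counts, edgeR called 5 of 68, against 1069 of 30103 genes. The median log2 fold change of the 39 was -0.17, and that of all genes 0.02. With 1 sample left out, the receptor median ran from -0.29 (without WT replicate 3) to 0.19 (without WT replicate 2). Both calls by edgeR were galanin receptors. The tests used replicates 1 to 3 of WT EECs, and the value of replicate 4 is given last in each list below.

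The galanin receptor galr2b rose, with 53.0, 54.6 and 24.6 CPM in pax6b-/- EECs, against 11.2, 5.54, 12.6 and 3.76 CPM in WT EECs (log2 fold change 2.12 ± 0.40, adjusted p = 0.0137 by edgeR). The lowest mutant sample was above the highest of the 4 WT samples, and the call held in all 6 fits without 1 sample. Its relative galr1a fell, with 0.983, 4.11 and 1.204 CPM in pax6b-/- EECs, against 6.71, 13.1, 16.2 and 14.4 CPM in WT EECs (-2.56 ± 0.60, adjusted p = 0.0428 by edgeR). These groups did not overlap either, but the call was lost in 4 of the 6 fits, without pax6b-/- replicate 1 or 3 or WT replicate 2 or 3 (adjusted p from 0.118 to 0.143). In mammals the first type of galanin receptor couples to inhibitory G proteins, while the second also activates phospholipase C. The ligand gene galn had 28.3, 0.180 and 0.624 CPM in pax6b-/- EECs, against 370, 475, 1217 and 953 CPM in WT EECs. Every mutant sample was far below every WT sample, but the difference did not pass here (adjusted p = 0.334 by edgeR). The study, which used DESeq2, reports galn as significantly downregulated in these mutant cells. Replicate 1, the mutant sample with galn, also held 199 CPM of the enterocyte gene fabp1b.1, against 30.2 and 32.6 CPM in the other mutant samples. This gene is 1 of the 8 enterocyte markers, and the others are not given here by sample. None of the 8 passed between the EEC genotypes. Their sums overlapped, at 907 to 1856 CPM in pax6b-/- EECs and 1170.3 to 1641 CPM in WT EECs. A link to galn was not tested.

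Several further receptors had large fold changes in EECs without passing. For ghsra the values were 1.91, 2.13 and 0.714 CPM in pax6b-/- EECs and 0.0650, 0.268, 0 and 0.0387 CPM in WT EECs (log2 fold change 3.79 ± 1.14, adjusted p = 0.118 by edgeR). For oprk1 they were 3.22, 3.48 and 0.758 CPM in pax6b-/- EECs and 0.0813, 0.446, 0 and 0 CPM in WT EECs (3.80 ± 1.15, adjusted p = 0.121 by edgeR). Both genes were called higher in pax6b-/- PECs. In WT EECs they had few counts, 4, 9, 0 and 1 for ghsra and 5, 15, 0 and 0 for oprk1. Both could enter the EEC test only through the mutants, so the lack of overlap between the genotypes is no further support. With all 4 WT samples in the fit both passed, ghsra at an adjusted p of 0.0702 and oprk1 at 0.0886 (edgeR). Their ligand genes ghrl and pdyn were higher in pax6b-/- EECs (2.11 and 6.11, adjusted p = 0.000601 and 0.0121 by edgeR). The vasopressin receptor avpr1ab had 1.195, 0.690 and 0.446 CPM in pax6b-/- EECs and 1.25, 3.42, 23.2 and 1.59 CPM in WT EECs (-3.64 ± 1.01, adjusted p = 0.111 by edgeR), its high WT mean resting on replicate 3.

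The other abundant EEC receptors did not pass between genotypes. The nociceptin receptor oprl1 had 61.5, 84.8 and 66.4 CPM in pax6b-/- EECs and 62.4, 53.5, 62.6 and 44.4 CPM in WT EECs (log2 fold change 0.19 ± 0.23, adjusted p = 0.768 by edgeR). The delta receptor oprd1b had 52.5, 68.4 and 59.6 CPM in pax6b-/- EECs and 69.2, 96.0, 72.6 and 81.8 CPM in WT EECs (-0.46 ± 0.23, adjusted p = 0.395 by edgeR). For oprd1b every mutant sample was below every WT sample, by a narrow margin. The insulin receptor insr (ENSDARG00000011948) overlapped between the genotypes, with 40.2, 34.5 and 28.9 CPM in pax6b-/- EECs and 26.1, 30.0, 20.9 and 45.7 CPM in WT EECs. The tachykinin receptor tacr2 had 4.03, 8.76 and 2.63 CPM in pax6b-/- EECs and 7.35, 20.0, 13.3 and 14.3 CPM in WT EECs (-1.43 ± 0.51, adjusted p = 0.197 by edgeR), where a single mutant sample reached the lowest WT sample. For crhr1, with 10.7, 8.61 and 6.11 CPM in pax6b-/- EECs and 10.1, 10.4, 1.29 and 9.91 CPM in WT EECs, and for npy8br, with 3.95, 1.92 and 2.19 CPM in pax6b-/- EECs and 4.54, 4.79, 0.0646 and 4.26 CPM in WT EECs, WT replicate 3 stood far below the other WT samples. The calcitonin-receptor-like gene calcrla, whose product binds calcitonin gene-related peptide or adrenomedullin together with a partner protein, had 16.1, 10.8 and 6.24 CPM in pax6b-/- EECs and 3.66, 6.64, 1.81 and 7.16 CPM in WT EECs (1.41 ± 0.51, adjusted p = 0.207 by edgeR). Of the ligand genes of this family, calca fell in the same cells (-2.61, adjusted p = 0.00119 by edgeR) and the adrenomedullin-family gene adm2a rose (1.83, adjusted p = 0.00285 by edgeR).

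Whether the effect of pax6b loss differed between the tissues was tested as an interaction in a single fit of 12 samples. Of the 48 receptor genes tested, 2 passed, gcgra and tacr3l, against 3.58% of all 21067 genes (1.71% with a higher and 1.87% with a lower mutant effect in EECs). For gcgra the mutant effect was 7.58 ± 0.68 higher in EECs than in PECs on the log2 scale (adjusted p = 1.7e-05 by edgeR). In EECs gcgra had 9.43, 3.33 and 3.52 CPM in mutants and 1.203, 2.32, 0.970 and 1.70 CPM in WT, each mutant sample above each WT sample, though that comparison alone did not pass (1.81 ± 0.60, adjusted p = 0.165 by edgeR). For tacr3l the difference was -2.48 ± 0.60 (adjusted p = 0.0364 by edgeR). Its EEC values were 4.20, 14.1 and 21.5 CPM in mutants and 35.7, 25.7, 22.9 and 12.2 CPM in WT, which overlapped once replicate 4 is counted (-1.16 ± 0.46, adjusted p = 0.258 by edgeR). With DESeq2, 7 of 53 receptors passed the interaction, against 1379 of 22847 genes. Both edgeR interaction calls held in all 12 fits without 1 sample. For gcgra the difference was between 6.90 and 7.99 in these fits and for tacr3l between -2.92 and -2.05, with an adjusted p of up to 0.0969 for tacr3l. Replicate 1 of pax6b-/- EECs had both the highest gcgra level in that group and the highest level of fabp1b.1. That gene is 1 of 8 enterocyte markers and the only one given by sample above. None of the 8 passed between the EEC genotypes, and a link to gcgra was not tested.

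Of the 26 receptors tested in both tissues, galr2b passed in both mutant comparisons and rose in each, which is 6.67% of the 15 calls in PECs and 1 of the 2 in EECs, where over all genes 13.2% of the PEC calls and 35.3% of the EEC calls passed in both. Its call in PECs was the less firm of the pair, as given above. With 7, 0 and 33 counts in the WT samples, galr2b could enter the PEC test only through the mutants. That call was also lost with the replicate block (adjusted p = 0.146 by edgeR). With DESeq2, 5 receptors passed in both, galr2b, ghsra, oprk1, gcgra and avpr1ab. They made up 27.8% of the PEC calls and 41.7% of the EEC calls, against 17.7% and 30.6% over all genes. These 5 did not all rise: by edgeR the log2 fold change of gcgra was -5.75 in PECs and 1.81 in EECs. That of avpr1ab in EECs was -3.64, and in PECs its mean was also lower in mutants, at 0.0507 CPM, against 0.489 CPM in WT. A call in PECs and none in EECs does not show that the effects differ: for ghsra and oprk1 the interaction was 1.30 ± 1.06 and 1.89 ± 1.02 (adjusted p = 0.684 and 0.476 by edgeR), and for npy8br, which passed in PECs alone, it was -3.04 ± 1.198 (adjusted p = 0.272 by edgeR).

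**Figure D3:**
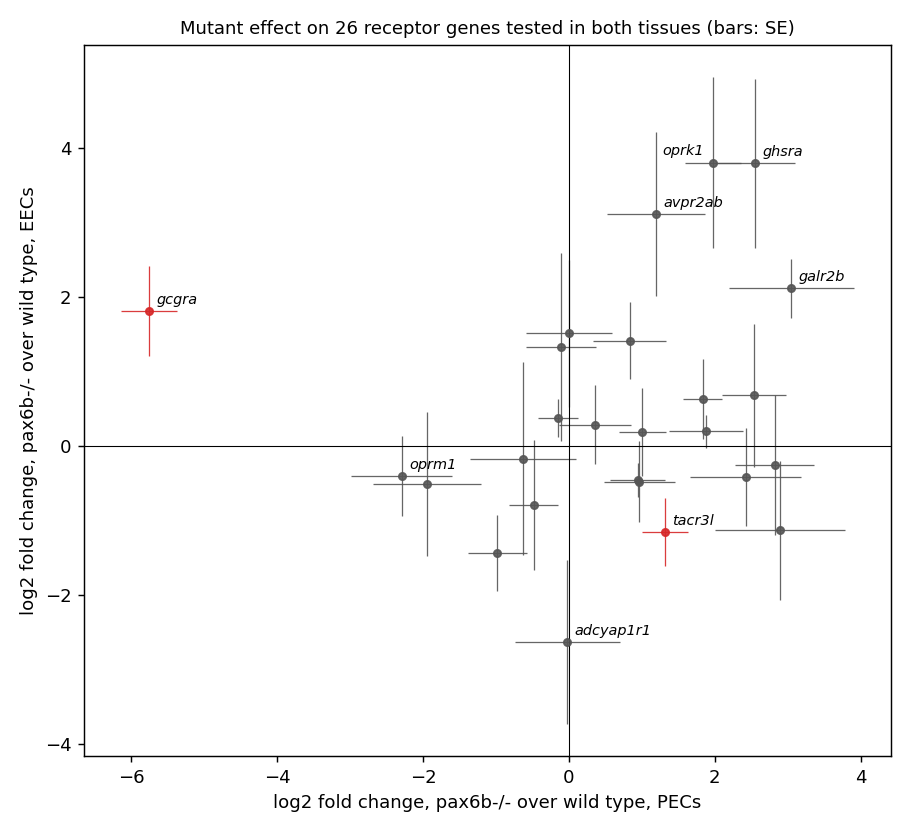
Log2 fold change of pax6b-/- over WT in PECs (horizontal) and in EECs (vertical) for the 26 receptor genes tested in both tissues; bars are SE, and red marks the 2 genes with an interaction past an adjusted p of 0.1. The gene gcgra lies at -5.75 in PECs and 1.81 in EECs, and tacr3l at 1.32 and -1.16, while galr2b, ghsra and oprk1 are positive on both axes.

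**Figure D4:**
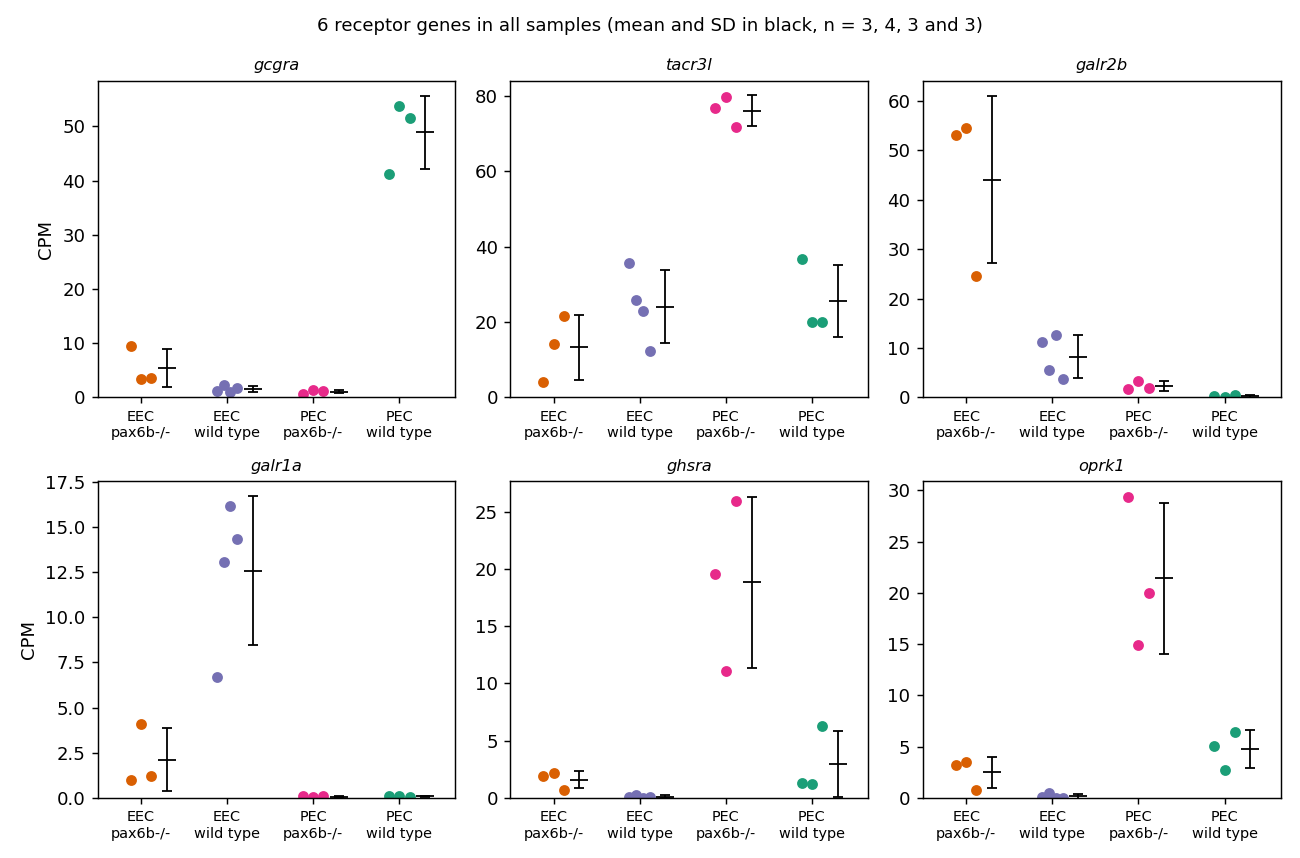
CPM of 6 receptor genes in every sample of the 4 groups on linear axes that differ between panels; black bars give mean and SD (n = 3, 4, 3 and 3 from left to right). WT PECs hold the only samples with gcgra above 10 CPM, all 3 pax6b-/- PEC samples are above every other sample for tacr3l, and galr2b is highest in pax6b-/- EECs.

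Which receptors set EECs apart from PECs was asked in each genotype. In WT, 23 of 41 tested receptors passed, 14 higher and 9 lower in EECs, against 34.2% of all 19302 genes (18.4% higher and 15.8% lower). In pax6b-/- cells 26 of 36 passed, 15 higher and 11 lower in EECs, against 40.3% of all genes (21.0% higher and 19.3% lower). The median log2 fold change was 0.31 for the receptors and -0.02 for all genes in WT, and 0.58 and -0.06 in mutants, a description only. A receptor near the floor in 1 tissue could enter the test through the other tissue alone, and its fold change then depends on few counts. With 1 sample left out, the receptor median ran from 0.27 to 0.78 in WT. In mutants it ran from -0.07 (without EEC replicate 2) to 0.85 (without EEC replicate 3). A total of 19 receptors passed in both genotypes, which is 73.1% of the mutant calls and 82.6% of the WT calls, where the same shares over all genes were 60.6% of the mutant calls and 69.7% of the WT calls, with 11 of them higher in EECs, 7 lower in EECs and 1, gcgra, on opposite sides. The enterocyte and blood markers given above also differ between the tissues, and their part was not tested.

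Somatostatin, galanin, neuropeptide Y and opioid receptors supplied 8 of the 15 receptors higher in pax6b-/- EECs and 9 of the 14 higher in WT EECs, and also 14 of the 36 tested in mutants and 17 of the 41 tested in WT, while 4 of them in mutants and 3 in WT were lower in EECs. For galr1a, WT EECs had the 6.71 to 16.2 CPM given above and WT PECs 3, 3 and 2 counts, at or under the floor (log2 fold change 7.49 ± 0.72, adjusted p = 1.2e-05 by edgeR, a fitted value that depends on those few counts). For galr2b the fold change was 4.45 ± 0.45 in mutants (adjusted p = 2.2e-05 by edgeR) and 5.39 ± 0.86 in WT (adjusted p = 0.000551 by edgeR). The somatostatin receptor sstr5 had 7.29, 8.91 and 5.75 CPM in pax6b-/- EECs, against 0.0286, 0.0411 and 0.253 CPM in pax6b-/- PECs, and 8.27, 9.35, 26.7 and 9.87 CPM in WT EECs, against 0.339, 0.239 and 0.533 CPM in WT PECs. The receptor sstr1a stood on the other side, with 5.13, 8.70 and 5.40 CPM in pax6b-/- EECs and 4.99, 5.77, 1.36 and 2.94 CPM in WT EECs, below every PEC sample (-3.11 ± 0.30 in mutants and -1.88 ± 0.50 in WT, adjusted p = 1.8e-05 and 0.0139 by edgeR). Both were called in each genotype, sstr5 with 5.37 ± 0.63 in WT (adjusted p = 5.3e-05 by edgeR).

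The receptors for neuropeptide Y and peptide YY also divided by tissue. In WT EECs npy1r had 3.64, 1.67, 1.55 and 2.48 CPM, against 0.0781, 0.0342 and 0.275 CPM in WT PECs (log2 fold change 4.17 ± 0.89, adjusted p = 0.00399 by edgeR). For npy2r (ENSDARG00000089943) the values were 1.9996, 3.60, 3.49 and 3.60 CPM in WT EECs, against 0.234, 0.103 and 0.469 CPM in WT PECs (3.55 ± 0.74, adjusted p = 0.00350 by edgeR). By contrast npy4r had 0.0325, 0.655, 0 and 0.155 CPM in WT EECs, against the 2.03 to 8.81 CPM of WT PECs given above (-4.39 ± 1.15, adjusted p = 0.0135 by edgeR). The fitted WT EEC samples held 2, 22 and 0 counts of npy4r, so it could enter that test only through PECs. All 3 receptors kept their side in mutants, npy1r and npy2r higher in EECs (4.21 and 5.63) and npy4r lower (-2.95). Mutant PECs held 0, 19 and 0 counts of npy1r and 5, 5 and 3 of npy2r. These 2 genes could therefore enter the mutant test only through EECs. The mutant call of npy1r held in all 6 fits without 1 sample, with fold changes from 3.56 to 10.2. It was lost with DESeq2 (adjusted p = 0.140). The ligand gene pyyb was expressed in EECs at 3199 ± 483 CPM in mutants and 28945 ± 4001 CPM in WT (SD, n = 3 and 4), where PECs had 16.3 ± 1.58 CPM in mutants and 26.4 ± 13.0 CPM in WT (SD, n = 3 each).

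Opioid receptors likewise fell on both sides. In WT, oprl1 was higher in EECs by 4.39 ± 0.48, oprd1b by 2.21 ± 0.37 and oprm1 by 1.74 ± 0.61 on the log2 scale, and oprk1 was lower by a log2 fold change of -4.72 ± 0.99 (adjusted p = 3.1e-05, 0.000846, 0.0536 and 0.00369 by edgeR). The fitted WT EEC samples held 5, 15 and 0 counts of oprk1, so it could enter the test only through PECs. The WT call of oprm1 was lost without WT EEC replicate 1 or 2 or WT PEC replicate 1 (adjusted p from 0.107 to 0.184), and its values were 5.85, 4.97, 3.10 and 3.02 CPM in WT EECs. In mutants the call of oprd1b (0.78 ± 0.25, adjusted p = 0.0322 by edgeR) was lost without EEC replicate 2 or PEC replicate 2 (adjusted p = 0.114 and 0.118). The summed level of the 5 opioid receptors was 138 ± 22.6 CPM in pax6b-/- EECs and 142 ± 10.4 CPM in WT EECs (SD, n = 3 and 4), and 75.6 ± 13.8 CPM in pax6b-/- PECs and 28.0 ± 17.6 CPM in WT PECs (SD, n = 3 each). The enkephalin gene penka was abundant in EECs of either genotype, between 1742 and 16273 CPM, and at most 10.05 CPM in any PEC sample.

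Among the remaining receptors higher in EECs, the tachykinin receptor tacr3a had 4.50, 3.18, 2.71 and 5.65 CPM in WT EECs, against 0.287, 0.239 and 0.0969 CPM in WT PECs (log2 fold change 4.05 ± 0.76, adjusted p = 0.00173 by edgeR). In mutants it had 1.72, 2.07 and 1.03 CPM in EECs, against 1, 0 and 1 counts in PECs. The oxytocin receptor oxtr (ENSDARG00000033956) had 1.84, 4.20, 2.004 and 4.26 CPM in WT EECs, against 0, 0.171 and 0.646 CPM in WT PECs (3.38 ± 1.04, adjusted p = 0.0295 by edgeR). Its call in mutants (2.03 ± 0.72, adjusted p = 0.0498 by edgeR), where EECs had 1.099, 1.02 and 1.47 CPM and PECs 0.258, 0.576 and 0.145 CPM, was lost without pax6b-/- EEC replicate 3 or PEC replicate 1 or 3 (adjusted p from 0.106 to 0.153). For avpr1ab the WT call (4.25 ± 1.28, adjusted p = 0.0313 by edgeR) was lost without WT EEC replicate 3 or WT PEC replicate 2 (adjusted p from 0.146 to 0.162). The V2-type avpr2b.1 had 2.78, 1.61, 1.65 and 7.28 CPM in WT EECs, above all WT PEC samples (2.03 ± 0.72, adjusted p = 0.0531 by edgeR), and lost that call without WT EEC replicate 1 or WT PEC replicate 1 or 2 (adjusted p from 0.179 to 0.204).

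The vasopressin receptor avpr1a and the somatostatin receptor sstr2 (ENSDARG00000069806) were also called higher in WT EECs, with means under 1 CPM in both groups of that comparison, and avpr1a lost its call without WT EEC replicate 3 or WT PEC replicate 1 or 3 (adjusted p from 0.1003 to 0.140).

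Receptors lower in EECs included the ghrelin receptor, 1 of the igf1r genes and, in WT, 2 of the 4 VIP and PACAP receptors tested. In WT, ghsra was lower in EECs by a log2 fold change of -4.59 ± 1.099 and vipr2 by -4.38 ± 0.84 (adjusted p = 0.00810 and 0.00198 by edgeR). The fitted WT EEC samples held 4, 9 and 0 counts of ghsra. It could enter the test only through PECs, and its fold change depends on those few counts. For igf1r (ENSDARG00000034434) the values were 0.964, 0.390 and 0.446 CPM in pax6b-/- EECs and 0.764, 1.93, 0.355 and 2.40 CPM in WT EECs, below every PEC sample (-3.76 ± 0.48 in mutants and -3.45 ± 0.61 in WT, adjusted p = 0.00014 and 0.00111 by edgeR). Its paralog igf1r (ENSDARG00000027423) did not pass in any comparison, with means of 2.64 and 3.34 CPM in pax6b-/- and WT EECs and 3.57 and 1.57 CPM in pax6b-/- and WT PECs. The gene igf1 was at most 0.298 CPM in any EEC sample and between 1.15 and 4.74 CPM in PECs. For grpr, WT EECs held between 0 and 0.179 CPM (-3.67 ± 1.03 against WT PECs, adjusted p = 0.0189 by edgeR), and it too could enter the test only through PECs. The WT call of adcyap1r1b (-2.14 ± 0.83, adjusted p = 0.0751 by edgeR) was the least stable of those between WT tissues, lost in 5 of the 6 fits without 1 sample, all but the one without WT EEC replicate 1, with an adjusted p of up to 0.228. In mutants, where PECs had higher adcyap1r1b, it held in all 6 (-4.01 ± 0.55).

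The receptor that changed sides was gcgra. In WT it was lower in EECs, with a log2 fold change of -5.02 ± 0.41 (adjusted p = 3e-06 by edgeR), and in mutants higher in EECs, with 2.51 ± 0.56 (adjusted p = 0.00526 by edgeR), and each of these calls held in all 6 fits without 1 sample. A further 7 receptors were called between the tissues in mutants alone: tacr3l (-2.37), npy8br (-2.12), crhr1 (-1.54) and adcyap1r1 (-3.31), lower in EECs, and calcrla (1.33), insr (ENSDARG00000011948, 0.74) and mc5r (ENSDARG00000031348, 2.06), higher in EECs. The last 3 lost their call without pax6b-/- EEC replicate 1 or PEC replicate 1, and mc5r also without replicate 3 of either (adjusted p from 0.110 to 0.284). The PACAP receptor adcyap1r1 had 0.463, 0.0300 and 0.134 CPM in pax6b-/- EECs, against 2.66, 2.097 and 2.71 CPM in pax6b-/- PECs, with no overlap, whereas its WT samples spread from 0.471 to 4.38 CPM in EECs and from 0.308 to 5.77 CPM in PECs. Of the 7, only tacr3l passed the interaction test given above.

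**Figure D5:**
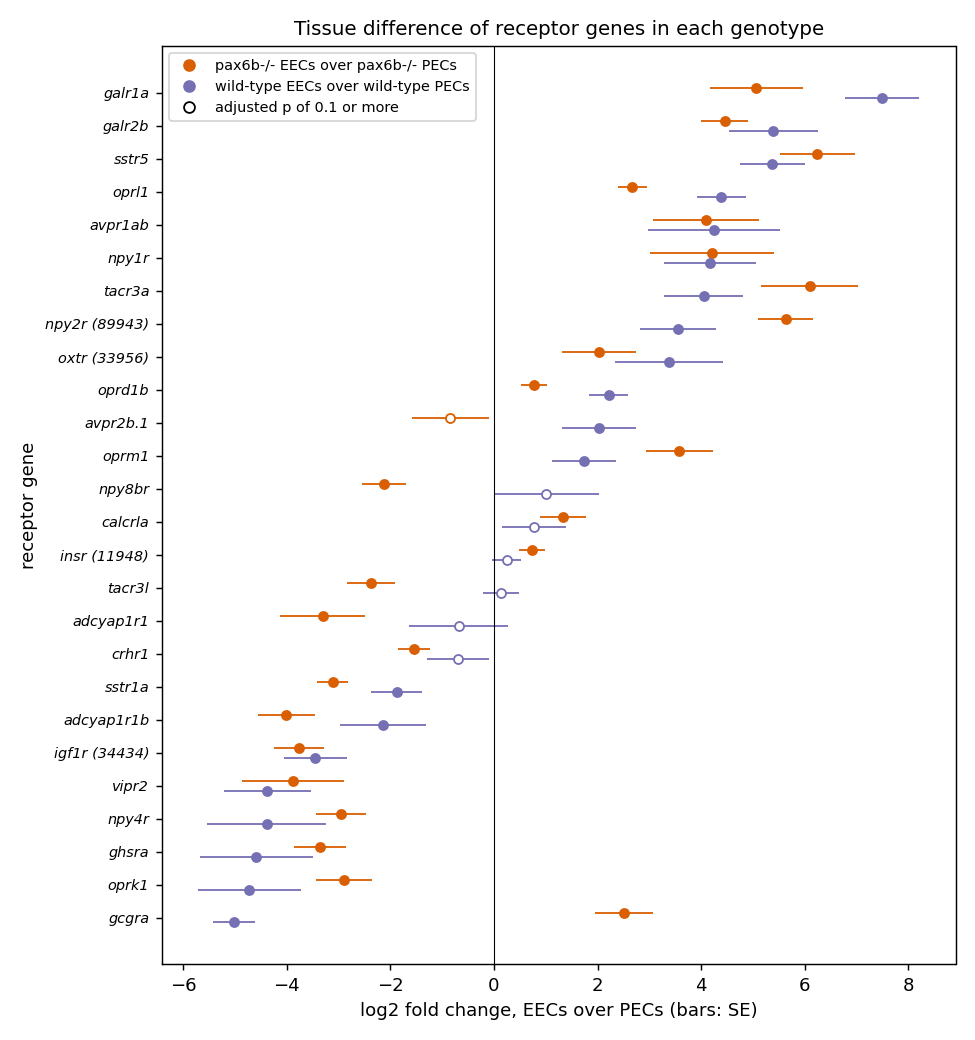
Log2 fold change of EECs over PECs (horizontal) in pax6b-/- cells (orange) and in WT cells (purple) for the 26 receptor genes tested in both genotypes and called in at least 1 of them; bars are SE and open points did not pass an adjusted p of 0.1. Where both points of a gene are filled they share a side, except for gcgra, which lies at 2.51 in mutants and -5.02 in WT.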

How the data were processed

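RNA from sorted pax6b:GFP+ cells was amplified by the Smart-seq2 method, which does not mark strand. The authors trimmed the reads, mapped them with STAR 2.5.4b to GRCz11 and deposited, for each of the 13 samples, whole-number counts per Ensembl gene from STAR, without normalization. Reads carry no molecular identifiers, so floors cover counting error only. Reads of near-identical paralogs, and of genes overlapping on opposite strands, may be split or shared.

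Symbols came from the study's own tables for 5831 identifiers and from the reference gene list for 23437, and 2633 had none; 21 of the 68 receptors were named from the tables. CPM was computed on all gene counts. Differences were fitted over all genes in R 4.3.3 with edgeR 4.0.16 (limma 3.58.1): TMM scaling, filterByExpr defaults, a robust quasi-likelihood fit, Benjamini-Hochberg adjustment and a threshold of 0.1, the level used in the study, whose DESeq2 method was run as an alternative (version 1.42.0). Log2 fold changes are TMM-scaled, CPM is not. Each SE of a log2 fold change was derived from the test, as its absolute value divided by the square root of the F statistic, and is approximate. Replicate 4 of WT EECs entered the levels but not the tests, since the study compared triplicates. The fits were tested on simulated data. The other alternatives were RLE scaling, no filter or a filter of over 1 CPM in at least 3 samples, a threshold of 0.05, a replicate block, one fit of 12 samples, all 4 WT EEC samples, and leaving out each sample. Receptors named with values passed in a comparison with a group mean of at least 1 CPM, or had a mean of at least 10 CPM in a group (29 genes); other members are given by name, range or count, except for values of igf1r (ENSDARG00000027423) and mc5r (ENSDARG00000031348), chosen after they were seen. Members, ligands and lists were chosen with earlier results of these data known. No value columns were left unmapped. Genes were given no coordinates or sequences, which were not used here.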

Additional observations from a re-analysis of the deposited data

Results flagged for a closer look

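In WT EECs, the group with 4 samples, each of the 29 receptors that met the naming rule was checked for a highest or lowest sample that stood apart by Dixon's gap test, the gap to the next sample over the whole range of the group. This held for 5 receptors, 4 of them at replicate 3. In replicate 3, avpr1ab was highest at 23.2 CPM and sstr5 highest at 26.7 CPM, while crhr1 was lowest at 1.29 CPM and npy8br lowest at 0.0646 CPM. In replicate 1, npy2r (ENSDARG00000089943) was lowest at 1.9996 CPM. Chance picks out about 1 in 20 groups, and the receptors share their samples.

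For gcgra, the effect of pax6b loss was 7.58 higher in EECs than in PECs on the log2 scale, and for tacr3l the same difference was -2.48, each past the threshold of the interaction test (adjusted p = 1.65e-05 and 0.0364 by edgeR).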

How the results depend on the processing

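No receptor call of the main fits reversed its direction under any alternative in which it was tested. Fold changes that did not pass in the main fits were not checked for this. Over these calls, which could only be kept or lost, 819 values stayed past the threshold and 92 did not. Of the calls in PEC mutants, 15 became 9 of 32 tested with the replicate block, 7 higher and 2 lower, against 1199 of 18698 genes. Same-numbered samples had correlations from -0.138 to -0.048 between PEC genotypes, -0.087 to 0.048 between EEC genotypes and -0.075 to 0.085 between WT tissues. Between mutant tissues they were 0.069, 0.105 and 0.256, and each EEC sample, but not PEC replicate 1, correlated best with its own number. The numbers were not taken as pairs. With the replicate block 3 of 39 receptors passed in EEC mutants, against 568 of 18676 genes. Between tissues the counts were 21 of 41 in WT (6067 of 19302 genes) and 26 of 36 in mutants (8508 of 18853 genes). For the interaction 2 of 48 passed, against 579 of 21067 genes. In EEC mutants, the 2 calls became 12 with DESeq2, 5 without the filter and 6 in one fit of 12 samples. The counts over all genes are given above for these. With all 4 WT samples 4 of 41 receptors passed, against 802 of 19066 genes. The interaction gave 7 calls of 53 tested with DESeq2 (3 higher and 4 lower), against 1379 of 22847 genes. Leaving out 1 sample, the calls in PEC mutants ranged from 8 of 37 (without pax6b-/- replicate 2) to 18 of 35 (without WT replicate 3). Over all genes, 1361 of 19882 and 3873 of 19217 passed in these 2 fits. In EEC mutants the calls ranged from 1 to 4 (391 to 678 of 19117 to 20022 genes). Between tissues they ranged from 19 to 24 in WT (4861 to 7046 of 20063 to 20900 genes) and from 23 to 27 in mutants (6445 to 7676 of 19386 to 20064 genes). For the interaction they ranged from 2 to 4 (503 to 1017 of 21671 to 22155 genes). The cause of these differences was not tested. Receptors below 1 CPM could not be compared firmly at this depth.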

Other observations

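Genes of the signalling machinery downstream of these receptors were taken from a list of 93. In pax6b-/- PECs, 4 were higher and 8 lower of 73 tested, where 11.2% of all genes passed, and in pax6b-/- EECs 1 was higher and 3 lower of 75 tested, where 4.18% of all genes passed. The difference between the tissues was not tested for the list. In pax6b-/- PECs, arrb1, a beta-arrestin gene whose product uncouples receptors from G proteins, was higher (log2 fold change 4.75 ± 0.37). Of the RGS genes, whose products speed up the shut-off of G proteins, rgs20 (1.39 ± 0.27) and rgs5a (1.48 ± 0.32) were higher and rgs16 (-4.54 ± 0.33) and rgs3a (-3.08 ± 0.38) lower, among 16 tested. None of the 17 G alpha subunit genes tested was higher and 4 were lower, including gna12a (-3.30 ± 0.40) and the inhibitory subunit gene gnai1 (-1.02 ± 0.27). The gene ramp1, for a partner protein of the calcitonin-receptor-like receptor, was lower too (-2.70 ± 0.69). All these passed an adjusted p of 0.1 by edgeR.

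In pax6b-/- EECs, rgs5a was again higher (1.15 ± 0.28), and the adenylyl cyclase genes adcy2b (-3.58 ± 0.77) and adcy7 (-1.21 ± 0.22) and mrap2a, for an accessory protein of melanocortin receptors (-2.70 ± 0.76), were lower, all by the same test.

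Of 53 genes for the ligands of these receptors, 6 were higher and 13 lower of 35 tested in pax6b-/- PECs, where 11.2% of all genes passed, and 7 were higher and 8 lower of 35 tested in pax6b-/- EECs, where 4.18% passed. The peptide genes mlnl, ghrl, adcyap1b, penkb and pdyn passed with higher levels in the mutants of both tissues. Of the lower ones, pyya passed in both tissues, and any others lower in both are not listed here. Over all genes and in either direction, 13.2% of the PEC calls and 35.3% of the EEC calls passed in both.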
